A study of Homo sapiens with 10 samples.

Results

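The genes described here are 60 axon guidance ligands and receptors, taken from a fixed list of 20 semaphorins, 9 plexins, 2 neuropilins, 8 ephrins, 9 Eph receptors, 2 netrins, 5 netrin receptors, 3 slits and 2 robo receptors, out of 20033 protein-coding genes. By role, 33 are ligands and 27 are receptors. The data are ChIP-Seq profiles of histone H3 acetylated at lysine 27 (H3K27ac) or at lysine 18 (H3K18ac). They were made in C4-2B, a line of prostate adenocarcinoma cells that grow without androgen, and in C4-2BER. The latter derives from C4-2B by continuous exposure to the antiandrogen enzalutamide, to which it is resistant, and has neuroendocrine (NE) features. For each mark and line 2 libraries were made, which gives 8 ChIP libraries, and every line had 1 input library. Each cell line is a single line, so a difference between them is a difference between these cultures, and the drug and the derivation of the line cannot be told apart.

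Semaphorins, ephrins, netrins and slits are cues that steer growing axons, migrating cells and vessels by attraction or repulsion. They are read by plexins with neuropilins, by Eph receptor kinases, by DCC and the UNC5 receptors, and by robo receptors, and the signal is passed to the cytoskeleton. Outside the nervous system the same proteins act in epithelial adhesion, angiogenesis and tumour invasion, and several are expressed in prostate epithelium. Both acetyl marks are laid down by CBP and p300 and are found at active promoters and enhancers.

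The values are those of 4 peak lists, 1 per mark and cell line. For every peak a list holds the fold enrichment, which is how many times the ChIP signal exceeds the background around it in that list. The replicates were merged before the peaks were called, so there is no replicate error, no test between the cell lines was possible, and every comparison is a description of these pooled libraries. The lists hold no read counts and the depth is unknown, so a site without a peak may still carry the mark. The value of a promoter was the highest fold enrichment of a peak within 1000 bp of the canonical transcription start site (TSS). It was called increased in C4-2BER with a peak there only or with a value at least 2 times that of C4-2B, and decreased in the mirrored case.

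Across the 4 lists the H3K27ac peaks numbered 72971 for C4-2BER and 68034 for C4-2B, and the H3K18ac peaks 197948 and 198451. The H3K27ac peaks had medians of 3.31 (C4-2BER) and 3.47 (C4-2B). The promoters of 9 of 9 luminal prostate markers, KLK3 among them, carried both marks in both cell lines, and none was called. Of 9 neuroendocrine markers, H3K27ac peaks lay at 4 promoters in C4-2BER and 3 in C4-2B. CHGA, INSM1, NCAM1, CHRNB2 and SRRM4 had none in either line. The blood cell markers PTPRC and CD3E had no promoter peak in any list, while COL1A1, a fibroblast marker, had H3K27ac values of 6.86 (C4-2BER) and 10.7 (C4-2B). ENO2 had 7.30 and 4.00 in C4-2BER and C4-2B, and SYP 5.67 and 8.16. Most of the 9 neuroendocrine markers thus lacked an H3K27ac peak at the promoter, while H3K18ac peaks lay at 8 of them in C4-2BER and 9 in C4-2B. Of these markers 1 was called increased in H3K27ac and 1 decreased in H3K18ac. The study itself reports higher RNA of CHGA, SYP, CHRNB2 and SRRM4 in C4-2BER, which was not examined here.

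Most of the 60 genes were marked at the promoter in both cell lines. H3K27ac peaks lay at 52 promoters in C4-2BER and 51 in C4-2B, which is 86.7% and 85.0%, against 69.6% and 69.1% of all protein-coding genes. H3K18ac peaks lay at 58 and 59 of the 60 promoters, against 81.1% and 83.8% of all genes. Both marks were present in both cell lines at 48 members. SEMA3A, a secreted repellent of sensory axons, had no promoter peak in any list. SEMA3D, SEMA3E, DCC and UNC5D had H3K18ac in both cell lines and no H3K27ac in either. The member promoters were GC-rich, with a median of 63.7% within 1000 bp of the TSS against 56.0% for all genes. In 10 of them the start site of another gene lay within the same window, so the peak cannot be assigned to the member alone. These were SEMA3F, SEMA5A, SEMA6A, SEMA6C, EFNA4, EPHA2, EPHA4, EPHA7, EPHB4 and UNC5C.

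Few of these promoters were called. In H3K27ac, 4 members were increased in C4-2BER, against a background of 3.31% of all genes, and 5 were decreased, against 8.01%. The members' shares were 6.67% and 8.33%. In H3K18ac, 0 members were increased and 2 decreased, against 2.10% and 6.12% of all genes. EPHA3 and ROBO1 were decreased in both marks, as were 1.19% of all genes, and no member was increased in both, as were 0.349%. Of the 9 members called in H3K27ac, 6 had a highest value under 4. At promoters with peaks in both cell lines the median log2 ratio of C4-2BER to C4-2B was −0.34 for H3K27ac over 48 members and −0.25 for H3K18ac over 58 members. The same medians over all genes were −0.51 and −0.34. Of the 48 members, 13 had more H3K27ac in C4-2BER than in C4-2B, 27.1%, against 11.8% of all genes with both peaks. These ratios carry the background of each list. With the fold rescaled by a line fitted over the regions that the cell lines share, the member medians were −0.03 and −0.07, against −0.11 and −0.14 over all genes. With the ratios centred within bins of promoter GC content they were 0.15 and 0.04, where the medians over all genes are 0 by construction. With the rescaling and the centring in turn, decreased H3K27ac was called at 8.33% and 6.67% of the members, against 3.20% and 2.75% of all genes. Increased H3K27ac was called at 6.67% and 10% of the members, against 3.63% and 4.56%. A peak in 1 list only is called whatever the ratio, so neither setting could undo such calls. These include all 4 reported increases, and the decreases of SEMA6D, ROBO1 and ROBO2.

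**Figure D1:**
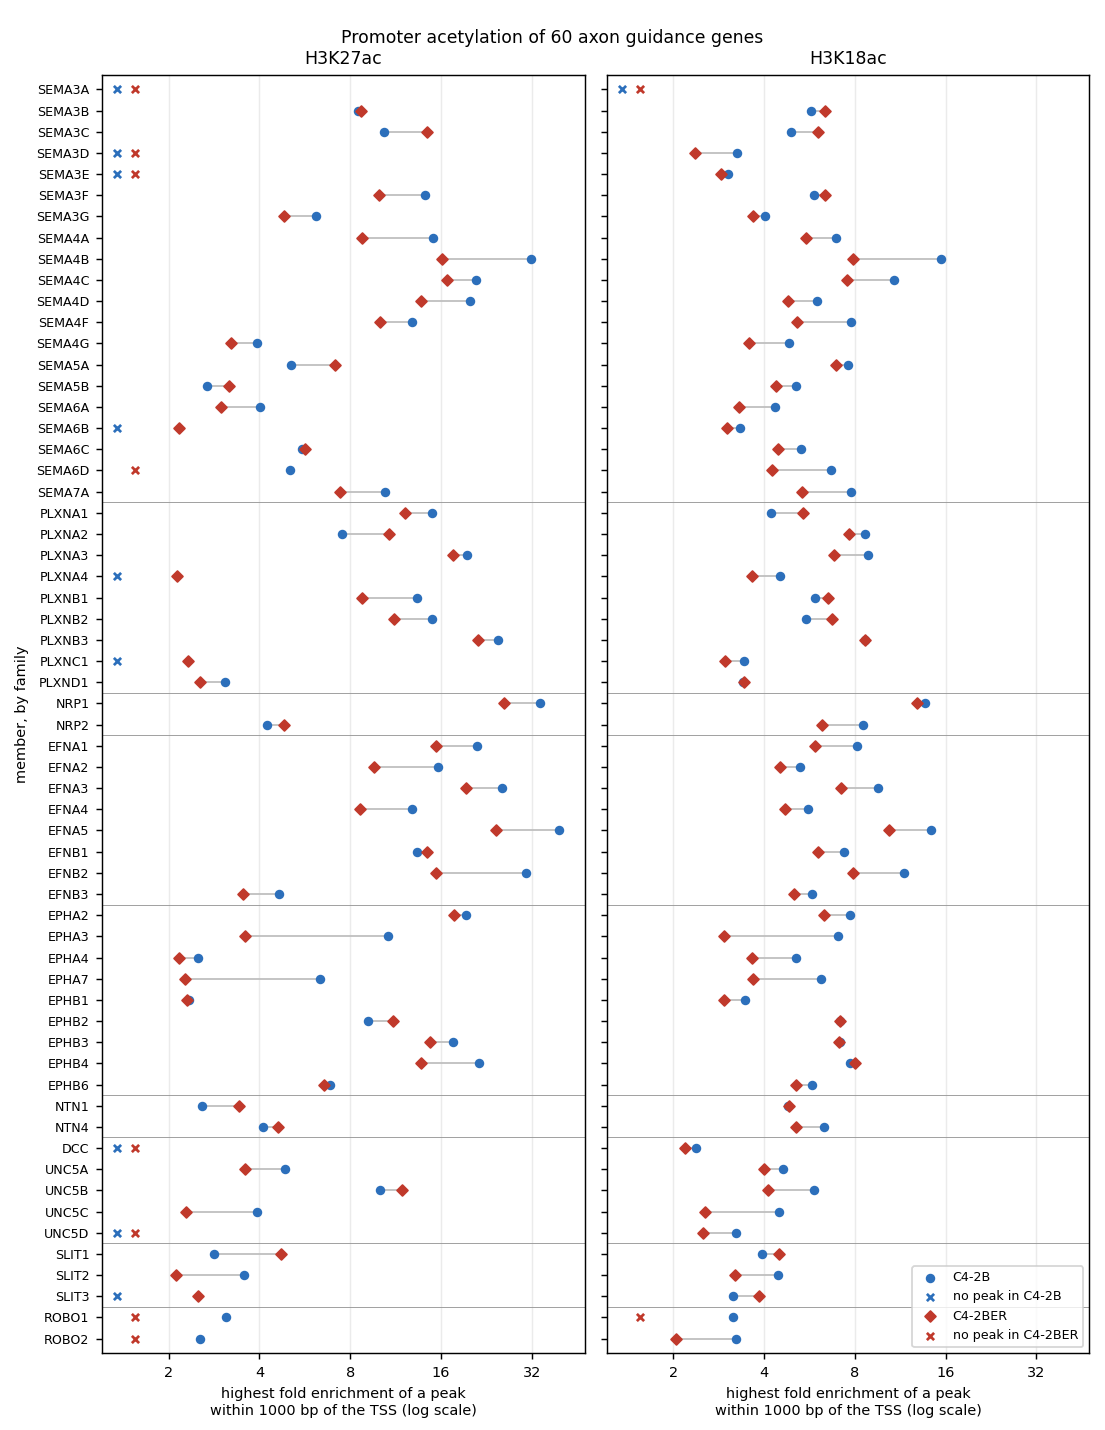
Promoter fold enrichment of the 60 members on a log scale, H3K27ac at the left and H3K18ac at the right, with 1 value per cell line (C4-2B blue circles, C4-2BER red diamonds) and crosses where a list had no peak; there are no error bars because the replicates were merged. In H3K27ac EPHA3 and EPHA7 show the widest gaps toward C4-2B among members with both peaks, while members with a peak in 1 cell line only, such as SLIT3 and ROBO2, lie near the low end.

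Among the ligands, the ephrins were strongly marked. All 8 had H3K27ac and H3K18ac peaks at the promoter in both cell lines, and none was called. EFNA5, a membrane-anchored ligand that repels retinal and cortical axons, had the highest H3K27ac value of all members in C4-2B, 39.3, and 24.3 in C4-2BER. Its H3K18ac values were 14.3 in C4-2B and 10.4 in C4-2BER. Both marks were thus lower in C4-2BER, by 0.69 and 0.46 on the log2 scale, and neither reached the limit of a 2-fold ratio. EFNB2, a transmembrane ligand known from arterial identity, had H3K27ac values of 30.7 in C4-2B and 15.4 in C4-2BER. Its log2 ratio of −0.9996 fell just short of the limit, so it was not called, and SEMA4B, with 31.8 and 16.1 and a log2 ratio of −0.98, was the next. Of the called members with a peak in both cell lines, the nearest to the limit was EPHA7 in H3K27ac, at −1.48. In H3K27ac EFNA1, EFNA2, EFNA3, EFNA4 and EFNB3 lay between 4.64 and 25.5 in C4-2B and between 3.51 and 19.4 in C4-2BER, each lower in C4-2BER. EFNB1 alone among the ephrins was higher in C4-2BER in H3K27ac, at 14.4 against 13.4, whereas its H3K18ac value was lower there, 6.03 against 7.37.

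The 250 bases before the RefSeq start of EFNA5, which coincides with the canonical TSS on the minus strand of GRCh38, are shown as an example of a strong promoter in this group (chr5:107670938-107671187). Here and in the other sequences, capitals mark matches to 6 motifs searched on both strands, namely GGGCGG (the GC box), TATAAA (the TATA box), CCAAT, TGACGTCA (the CRE), CAGCTG (an E-box) and AGAACA (an androgen response half-site). The matches in EFNA5 are GC boxes only, 3 in all, in a sequence of 79.6% GC with 41 CpG dinucleotides.
EFNA5 promoter: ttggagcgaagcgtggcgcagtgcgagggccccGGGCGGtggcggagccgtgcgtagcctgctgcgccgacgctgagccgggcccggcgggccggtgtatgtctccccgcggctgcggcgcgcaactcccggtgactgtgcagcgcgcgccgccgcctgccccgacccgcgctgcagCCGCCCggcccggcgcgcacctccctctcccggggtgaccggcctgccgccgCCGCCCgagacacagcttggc

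RefSeq promoters matched 52 of the 60 members by symbol, with 80 entries. A GC box occurred in 67.5% of these entries against 42.6% of all 35116 promoter entries of the same length. TATA boxes were in 3.75% against 10.7%, CCAAT in 30% against 32%, the CRE in 3.75% against 1.65%, the E-box in 11.25% against 14.0% and the androgen half-site in 1.25% against 12.4%. A match is a string of letters and not a bound site.

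The 20 semaphorins ranged widely. SEMA4B, SEMA4C and SEMA4D, transmembrane semaphorins, had H3K27ac values of 31.8, 21.0 and 19.95 in C4-2B and of 16.1, 16.7 and 13.7 in C4-2BER. SEMA3C, a secreted semaphorin known as an androgen-responsive growth factor of prostate cancer cells, went the other way, with H3K27ac of 14.3 in C4-2BER against 10.4 in C4-2B and H3K18ac of 6.04 and 4.89. SEMA5A, a transmembrane semaphorin with thrombospondin repeats, had H3K27ac values of 7.10 in C4-2BER against 5.07 in C4-2B, but H3K18ac of 6.94 and 7.57. Neither gene passed the 2-fold limit in either mark. SEMA6D, a transmembrane ligand of PLXNA1, had an H3K27ac value of 5.04 in C4-2B and no peak in C4-2BER, and H3K18ac values of 6.69 and 4.25. It was called decreased in H3K27ac under all 13 settings tried, though those that alter only the ratio could not undo this call. SEMA6B had an H3K27ac peak of 2.17 in C4-2BER only. A second TSS of SEMA6B, 1195 bp downstream, had 3.12 in C4-2B and 2.17 in C4-2BER, and a start farther upstream had 3.31 in C4-2BER only. With all annotated starts counted SEMA6B was not called. Of the SEMA6B promoter window, 25.4% of the 31-base words occur elsewhere in the genome, the highest share among the 60 members. The other 10 semaphorins with peaks in both lines, SEMA3B, SEMA3F, SEMA3G, SEMA4A, SEMA4F, SEMA4G, SEMA5B, SEMA6A, SEMA6C and SEMA7A, had H3K27ac values between 2.68 and 15.1 and log2 ratios from −0.78 in SEMA4A to 0.24 in SEMA5B.

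The 2 netrins were both marked in both lines. NTN1, the attractant that gave the family its name, had H3K27ac values of 3.41 in C4-2BER against 2.58 in C4-2B, and NTN4 4.60 and 4.11. The slits, secreted repellents that bind robo receptors, were weakly marked. SLIT1 had the highest H3K27ac ratio among members with peaks in both lines, with 2.82 in C4-2B and 4.72 in C4-2BER, a log2 ratio of 0.74, and its H3K18ac values were 3.93 and 4.48. SLIT2 was lower in C4-2BER, at 2.11 against 3.54 in H3K27ac and 3.20 against 4.45 in H3K18ac. At its canonical start SLIT3 had an H3K27ac peak in C4-2BER, of 2.49, which was above 26.9% of its list, and none in C4-2B. Its H3K18ac values there were 3.83 and 3.15. Over all annotated starts of SLIT3 the highest H3K27ac value was 4.66 in C4-2BER against 3.05 in C4-2B. The increase was called under 10 of the 13 settings, and those that alter only the ratio could not undo it. It was not called with all starts counted, with a 4-fold minimum or with a minimum −log10 q-value of 5. The 3 slits therefore differed in direction. The promoter of SLIT3 (chr5:169301140-169301389, minus strand, upstream of the canonical TSS) is printed because inside its body this gene had 55 increased H3K18ac regions, the highest count among the members. It has 62.8% GC and 1 CCAAT match.
SLIT3 promoter: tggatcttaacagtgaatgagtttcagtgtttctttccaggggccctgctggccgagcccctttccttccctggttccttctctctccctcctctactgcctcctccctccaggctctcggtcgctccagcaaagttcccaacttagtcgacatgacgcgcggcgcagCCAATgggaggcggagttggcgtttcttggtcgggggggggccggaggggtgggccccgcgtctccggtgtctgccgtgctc

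Among the receptors, PLXNB3, a semaphorin 5A receptor, and NRP1, the co-receptor of secreted semaphorins, were the strongest. NRP1 had H3K27ac values of 34.0 in C4-2B and 25.9 in C4-2BER and H3K18ac of 13.6 and 12.9, and PLXNB3 had H3K27ac of 24.7 and 21.3 with nearly equal H3K18ac of 8.65 and 8.63. All 9 plexins had both marks in C4-2BER. PLXNA4 and PLXNC1 had H3K27ac peaks in C4-2BER only, of 2.13 and 2.31, and were called increased. At another start of PLXNC1, 113944 bp downstream, H3K27ac was 4.30 in C4-2BER against 4.92 in C4-2B, and with all annotated starts counted PLXNC1 was not called. At the canonical starts H3K18ac values went the other way, 3.64 against 4.51 in PLXNA4 and 2.97 against 3.44 in PLXNC1. PLXNA2 had H3K27ac of 10.8 in C4-2BER against 7.52 in C4-2B, and H3K18ac of 7.62 and 8.63. PLXNA1, PLXNB1 and PLXNB2 showed the reverse, with lower H3K27ac and higher H3K18ac in C4-2BER. PLXNA3 had H3K27ac of 17.55 in C4-2BER against 19.6 in C4-2B, and PLXND1 2.53 against 3.08. NRP2, the other neuropilin, had H3K27ac of 4.84 against 4.25 and H3K18ac of 6.24 against 8.49. The marks differed in direction at 15 of the 48 members that could be compared in both, with 9 higher in H3K27ac and lower in H3K18ac and 6 the other way. Both were lower at 29 and both higher at 4. This split was not made over all genes, whose median log2 ratios were −0.51 for H3K27ac and −0.34 for H3K18ac.

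Of the 9 Eph receptors 2 were called, both decreased. EPHA3, a kinase that binds ephrin A ligands and guides retinal axons, had H3K27ac values of 10.7 in C4-2B and 3.59 in C4-2BER, a log2 ratio of −1.57. Its H3K18ac values were 7.04 and 2.95, a log2 ratio of −1.26. In the H3K27ac lists its promoter stood above 82.2% of the peaks in C4-2B and 54.5% in C4-2BER, and in the H3K18ac lists above 95.4% and 68.9%. The decrease was called in both marks under 12 of the 13 settings, all except the one that counts presence alone. EPHA7 had H3K27ac of 6.36 in C4-2B and 2.27 in C4-2BER, and H3K18ac of 6.20 and 3.68, a log2 ratio of −0.75. Its H3K27ac call was made under 10 of the 13 settings, and not when the peak had to cover the start, with centring by GC content or by presence alone. The other 7 Eph receptors were marked in both cell lines and none was called. EPHA2, EPHB3 and EPHB4 had H3K27ac values between 13.7 and 21.4 in the 2 cell lines. EPHA4 and EPHB1 had values between 2.17 and 2.51. EPHB2 had H3K27ac of 11.1 in C4-2BER against 9.18 in C4-2B, and EPHB6, a kinase-dead family member, 6.52 against 6.84.

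The bases upstream of the EPHA3 start (chr3:89107371-89107620, plus strand) are shown because this promoter was lower in both marks. They contain 15 CpG dinucleotides at 61.2% GC, whereas the whole promoter window has 43.4% GC. The only match is 1 E-box.
EPHA3 promoter: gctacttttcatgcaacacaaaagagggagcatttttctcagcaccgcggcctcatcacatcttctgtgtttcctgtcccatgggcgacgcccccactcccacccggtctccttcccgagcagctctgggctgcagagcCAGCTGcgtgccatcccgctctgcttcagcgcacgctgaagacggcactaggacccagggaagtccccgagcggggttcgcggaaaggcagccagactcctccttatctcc

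ROBO1 and ROBO2, the receptors of slits, had H3K27ac at the canonical promoter in C4-2B only, with values of 3.09 and 2.55. H3K18ac at ROBO1 was 3.16 in C4-2B with no peak in C4-2BER, and at ROBO2 it was 3.23 and 2.03. The canonical start of ROBO1 is not its strongest. At another start 748539 bp downstream, H3K27ac was 12.7 in C4-2BER against 14.0 in C4-2B, and H3K18ac was 5.99 and 6.80, which differ by far less than 2-fold. With all annotated starts counted, ROBO1 was not called in either mark. ROBO2 has another start far upstream, at position 75906695 of chromosome 3, where H3K18ac was 3.98 in C4-2BER against 4.81 in C4-2B and no H3K27ac peak was found. The 2 start regions of ROBO1 are printed for comparison, both on the minus strand, the canonical one at chr3:79767999-79768248 and the inner one at chr3:79019460-79019709. The canonical sequence has 48% GC and 9 CpG dinucleotides, and the inner one 56.8% and 12. Each has 1 CCAAT match, which in the inner one is read on the opposite strand.
ROBO1 canonical promoter: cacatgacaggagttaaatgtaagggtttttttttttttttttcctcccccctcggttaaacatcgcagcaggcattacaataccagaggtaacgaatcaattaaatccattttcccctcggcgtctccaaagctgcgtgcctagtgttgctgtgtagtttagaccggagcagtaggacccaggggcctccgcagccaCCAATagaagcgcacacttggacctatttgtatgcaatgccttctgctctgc
ROBO1 inner promoter: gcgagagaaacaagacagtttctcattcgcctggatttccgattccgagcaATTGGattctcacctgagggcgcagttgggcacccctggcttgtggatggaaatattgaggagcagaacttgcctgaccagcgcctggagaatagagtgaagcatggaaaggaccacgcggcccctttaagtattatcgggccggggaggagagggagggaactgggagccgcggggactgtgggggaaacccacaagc

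Of the netrin receptors, DCC and UNC5D had weak H3K18ac only, from 2.18 to 3.22 over both genes and cell lines. UNC5B had the highest H3K27ac, 11.9 in C4-2BER and 10.1 in C4-2B. UNC5C was lower in C4-2BER in both marks, with 2.28 against 3.93 in H3K27ac and 2.54 against 4.46 in H3K18ac, log2 ratios of −0.79 and −0.81. UNC5A had H3K27ac of 3.57 in C4-2BER against 4.84 in C4-2B. At another annotated start of UNC5A, 52065 bp downstream, H3K27ac was 4.55 against 17.2 and H3K18ac 5.63 against 4.16, so that with all starts counted the gene was called decreased in H3K27ac.

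Ligands and receptors were also set side by side in 68 pairs from textbook knowledge. H3K27ac lay at both promoters of a pair in 56 pairs in C4-2BER and 57 in C4-2B. Among ephrin pairs it did so in 33 of 33 in each cell line, and among netrin pairs in 3 of 5 in each. Semaphorin pairs numbered 20 in C4-2BER and 17 in C4-2B of 24. Slit and robo pairs numbered 0 in C4-2BER and 4 in C4-2B of 6, a count made on the canonical starts. At other starts ROBO1 had H3K27ac peaks in both cell lines, and SLIT3 had one in C4-2B. Genes recur across pairs, so the pair counts repeat the promoter values of single genes. The semaphorin pairs that differ between the lines involve the canonical starts of SEMA6B, PLXNA4 and PLXNC1, and SEMA6B and PLXNC1 had H3K27ac peaks in C4-2B at other starts.

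Regions inside the genes, away from the canonical promoter, varied more than the promoters. Peaks of both cell lines were merged into regions, which gave 310 H3K27ac regions over the bodies of 48 members. Where several peaks of 1 line fell in a region, their fold enrichments were averaged with weights by length. Of these, 113 were increased in C4-2BER, 36.5% against 32.3% of all 49893 intragenic regions, and 66 were decreased, 21.3% against 25.1%. For H3K18ac there were 974 regions, with 300 increased, 30.8% against 26.2%, and 205 decreased, 21.0% against 25.5%. Nearly all called H3K27ac regions had a peak in 1 cell line only, 111 of them C4-2BER and 63 C4-2B, and their fold enrichments had medians of 2.50 and 2.51. The increased regions had a median GC content of 50.8% and the decreased ones 59.8%, and the part of base composition in the counts was not tested. The H3K18ac region at the same place was also increased for 33 of the 113 and also decreased for 14 of the 66.

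**Figure D2:**
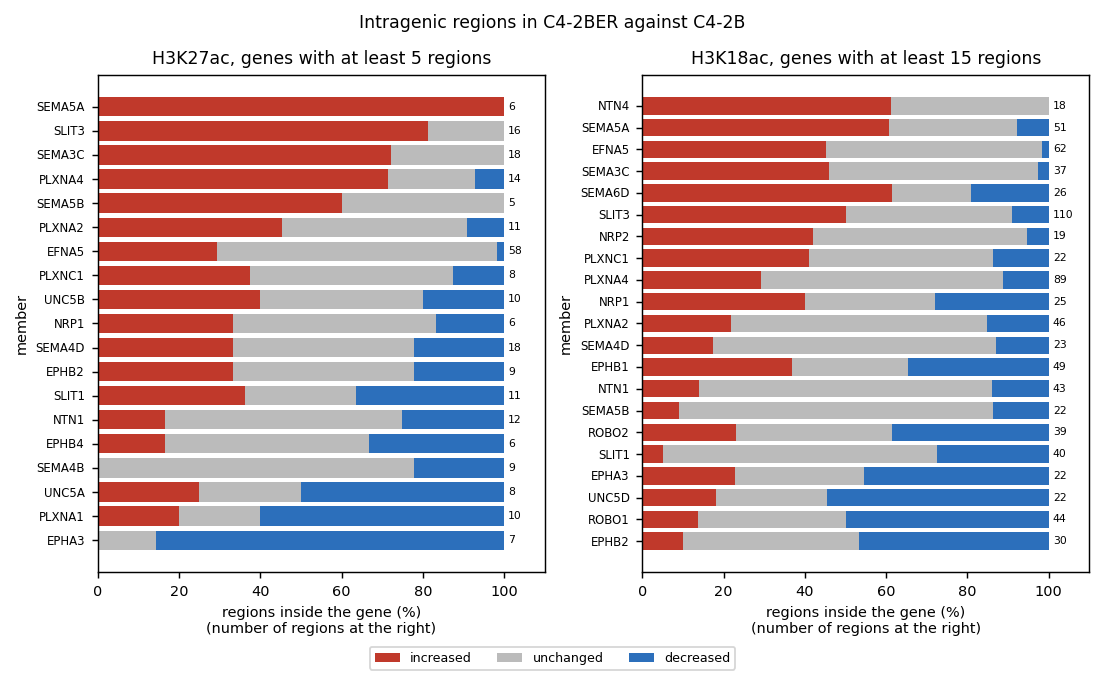
Share of the regions inside each gene that were increased (red), unchanged (grey) or decreased (blue) in C4-2BER, for members with at least 5 H3K27ac regions (left) and at least 15 H3K18ac regions (right), with the number of regions at the right of each bar. SEMA5A, SLIT3 and SEMA3C stand at the top for H3K27ac and EPHA3 at the bottom.

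Of the 113 increased H3K27ac regions, 59 lay in 5 long genes, which held 112 of the 310 regions. In SEMA5A 6 of 6 H3K27ac regions were increased, in SLIT3 13 of 16, in SEMA3C 13 of 18 and in PLXNA4 10 of 14, and decreased regions numbered 0, 0, 0 and 1. In EFNA5, 17 of 58 regions were increased and 1 decreased, a share of 29.3% that is below the 32.3% of all intragenic regions. In SEMA3C, 8 of the 13 increased regions had a centre with at least 50% of 31-base words that occur more than once in the genome. H3K18ac regions leaned the same way, with 31 increased and 4 decreased of 51 in SEMA5A, 55 and 10 of 110 in SLIT3, 17 and 1 of 37 in SEMA3C, 26 and 10 of 89 in PLXNA4, and 28 and 1 of 62 in EFNA5. The promoters of these genes did not follow one pattern, since EFNA5 was lower in C4-2BER at the promoter in both marks. Of the 66 decreased H3K27ac regions 16 lay in EPHA3, PLXNA1 and UNC5A. In EPHA3 6 of 7 H3K27ac regions were decreased and 0 increased, in PLXNA1 6 of 10 and in UNC5A 4 of 8, with 2 increased in each of the last pair. Of the EPHA3 regions, 5 had a peak in C4-2B only. Among these, regions with fold enrichments of 2.81 and 2.51 had centres with 67.6% and 90.6% of repeated 31-base words. The other 50 decreased regions were spread over further members, with 4 each in SEMA4D and SLIT1. These 2 genes did not lean to decreases, with 6 increased of 18 in SEMA4D and 4 of 11 in SLIT1. In H3K18ac, EPHA3 had 10 decreased and 5 increased of 22, PLXNA1 0 and 0 of 1, and UNC5A 1 and 0 of 6. Other members with many decreased H3K18ac regions were EPHB2 with 14 decreased and 3 increased of 30, ROBO1 with 22 and 6 of 44, and UNC5D with 12 and 4 of 22. In H3K27ac EPHB2 leaned the other way, with 2 decreased and 3 increased of 9. More increased than decreased regions were found at 21 members in H3K27ac and at 18 in H3K18ac, and the reverse at 20 and 25. Among them, 14 members leaned to increases in both marks at once and 12 to decreases. These counts per gene were not made over all genes, so they describe the members only.

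**Figure D3:**
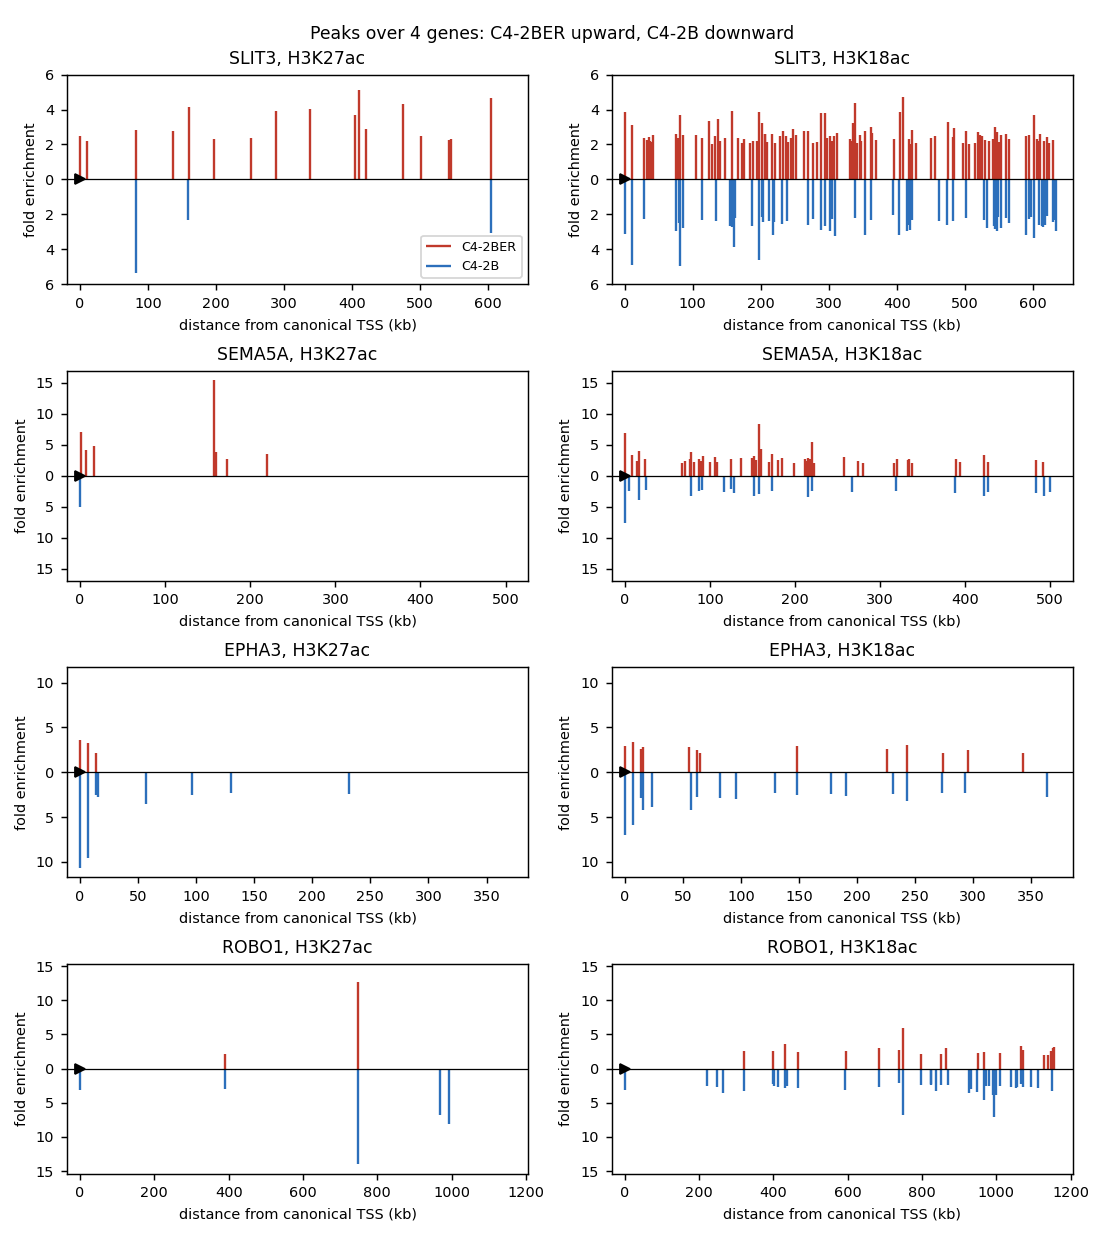
Peaks of SLIT3, SEMA5A, EPHA3 and ROBO1 by distance from the canonical TSS in kb along the gene, H3K27ac at the left and H3K18ac at the right, with the fold enrichment of each peak drawn upward for C4-2BER (red) and downward for C4-2B (blue). SLIT3 and SEMA5A have 17 and 7 H3K27ac peaks in C4-2BER against 3 and 1 in C4-2B, EPHA3 has 3 against 8, and the strong ROBO1 peak near 749 kb is present in both.

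The share of a gene body covered by peaks gave the same genes a size. H3K27ac peaks covered 25.04% of EFNA5 in C4-2BER and 12.8% in C4-2B, in 59 and 47 peaks. SEMA3C was covered over 14.7% and 6.86%, SLIT3 over 3.51% and 0.457%, and SEMA5A over 2.03% and 0.278%. In H3K18ac the coverage of SLIT3 was 23.9% in C4-2BER against 8.24% in C4-2B, that of PLXNA4 33.6% and 18.6%, that of NRP2 27.9% and 14.0% and that of EFNA5 19.9% and 7.47%. Short genes gave other extremes. EFNA4 was covered over 100% of its 5.82 kb by 1 broad H3K27ac peak in C4-2BER and over 39.7% by 3 peaks in C4-2B, SEMA3F over 100% and 78.7%, and SEMA6B over 21.65% and 4.40%. Coverage was lower in C4-2BER at EPHB6, with 12.9% against 39.0%, at PLXNA1, with 35.4% against 59.7%, at SEMA4C, with 42.1% against 63.9%, at SEMA3G, with 38.5% against 54.8%, and at SEMA7A, with 3.83% against 15.7%. The values of EFNA4 and SEMA3F in C4-2BER come from 1 broad peak each.

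In H3K18ac the coverage of short members was lower in C4-2BER. Of the 30 members at or below the median length of 103.2 kb, 4 had more and 25 less coverage in C4-2BER, with a median difference of −16.9 percentage points. Among all 16496 genes of at most that length 39.97% had more and 47.4% less, with a median of 0. PLXNB1 was covered over 20.3% in C4-2BER and 81.6% in C4-2B, SEMA4C over 30.4% and 75.1%, SEMA3G over 43.8% and 86.7%, and PLXNA1 over 55.8% and 97.5%. In C4-2B the coverage of SEMA3G came from 1 broad peak and that of PLXNA1 from 2. Promoter H3K18ac was higher in C4-2BER at PLXNA1, 5.36 against 4.22, and at PLXNB1, 6.49 against 5.89. It was lower at SEMA4C and SEMA3G. The part of peak joining in these differences was not tested. The 30 longer members were split, 16 more and 14 less, with a median of 0.21, whereas among all 3537 genes above that length 69.8% had more and 29.8% less, with a median of 1.24. The shorter members had the more GC-rich promoters, with a median of 64.7% against 61.0%, and the part of GC content in this split was not tested. Over all 60 members the median difference was 0.07 percentage points in H3K27ac and −0.79 in H3K18ac, against 0.14 and 0 over all genes.

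**Figure D4:**
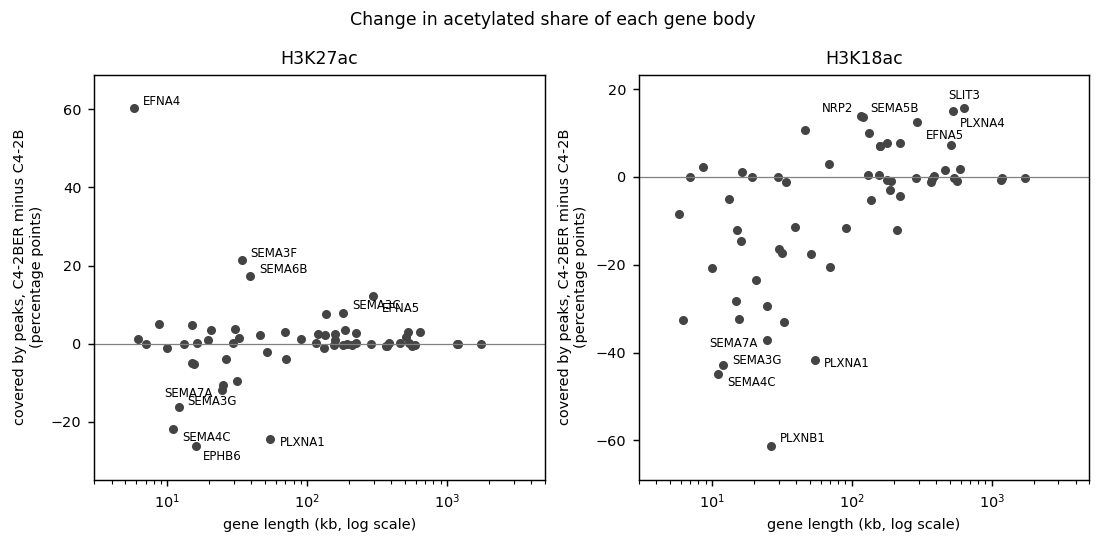
Difference between C4-2BER and C4-2B in the share of each gene covered by peaks, in percentage points, against gene length in kb on a log scale, 1 point per member, H3K27ac at the left and H3K18ac at the right, with the 5 highest and lowest differences named. In H3K18ac the short genes lie mostly below 0, down to PLXNB1, and the highest points are long genes such as SLIT3.

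Single regions reached higher values than these averages. The strongest increased one lay in intron 2 of SEMA5A, with an H3K27ac value of 15.4 in C4-2BER and no peak in C4-2B, and H3K18ac values of 8.39 and 2.96. Of the 31-base words in its central 200 bases, 87.1% occur more than once in GRCh38, with a median of 57 copies. The part of repeated sequence in this peak was not tested.

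Of the 113 increased regions, 87 had a centre made only of words that occur once, and 17 a centre with at least 50% of repeated words, 15.04% against 19.8% of all H3K27ac regions found in C4-2BER only. Of the 66 decreased regions these were 52 and 6, 9.09% against 23.6% of all regions in C4-2B only. The strongest region of unique words that was increased in both marks lay in intron 4 of SLIT3 (chr5:168891230-168891905), 409572 bp downstream of the TSS. H3K27ac was 5.13 and H3K18ac 4.69 in C4-2BER, and neither mark had a peak in C4-2B. Its centre (chr5:168891468-168891667, minus strand) has 52.0% GC, no CpG dinucleotide and no match to the motifs.
SLIT3 intron 4: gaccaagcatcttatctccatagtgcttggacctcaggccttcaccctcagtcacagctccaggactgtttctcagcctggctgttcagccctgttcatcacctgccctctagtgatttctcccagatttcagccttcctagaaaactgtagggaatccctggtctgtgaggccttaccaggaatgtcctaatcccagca

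The strongest decreased region lay in intron 2 of UNC5A (chr5:176861140-176864752), with H3K27ac of 17.2 in C4-2B and 4.55 in C4-2BER, a log2 ratio of −1.92. Over the same place the averaged H3K18ac values were 4.16 in C4-2B and 3.54 in C4-2BER, which was called unchanged. This region holds the annotated inner start of UNC5A, where the highest single H3K18ac peak was higher in C4-2BER, as given above. Next came intron 1 of EPHA3 (chr3:89114389-89115112), 7129 bp downstream of the start, with H3K27ac of 9.60 and 3.24 and H3K18ac of 5.85 and 3.33. Both centres consist of words that occur once in the genome, and they are printed on the plus strand, UNC5A at chr5:176862847-176863046 and EPHA3 at chr3:89114651-89114850. The UNC5A centre has 1 CCAAT match and 1 E-box. The EPHA3 centre has 1 GC box and 19 CpG dinucleotides at 65.5% GC.
UNC5A intron 2: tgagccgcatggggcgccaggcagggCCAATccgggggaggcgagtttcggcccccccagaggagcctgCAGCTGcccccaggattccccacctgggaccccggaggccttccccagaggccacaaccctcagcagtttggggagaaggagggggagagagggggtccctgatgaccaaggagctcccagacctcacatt
EPHA3 intron 1: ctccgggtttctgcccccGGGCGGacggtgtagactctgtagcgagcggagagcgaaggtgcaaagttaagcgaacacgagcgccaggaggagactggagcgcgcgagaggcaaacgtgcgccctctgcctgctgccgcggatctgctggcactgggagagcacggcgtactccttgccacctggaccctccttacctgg

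For scale, a GC box lay in the central 200 bases of 13.4% of all 89877 H3K27ac regions, CCAAT in 18.5% and the E-box in 12.5%. Other strong decreases were an intron 8 region of UNC5D with H3K27ac of 7.71 in C4-2B only, and intron 4 regions of ROBO1 with 8.05 and 6.81 in C4-2B only. Of the 31-base words at the centre of the stronger ROBO1 region, 68.8% occur more than once in the genome.

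The genes around these ligands and receptors were read in the same way, beside the shares of all genes. Those shares were 3.31% increased and 8.01% decreased in H3K27ac, and 2.10% and 6.12% in H3K18ac. Among 11 further members of the same families, 1 promoter was decreased in H3K27ac, that of EPHA6, with 37.6 in C4-2B and 13.2 in C4-2BER, and its H3K18ac values were 13.8 and 7.43. In H3K18ac 3 of the 11, EPHA8, EPHA10 and NTN5, had a peak in C4-2B only, of 2.17 to 3.37, against 6.12% of all genes decreased. Among 12 co-receptors and adhesion partners, NRCAM and FLRT1 had H3K27ac peaks in C4-2BER only, of 2.35 and 2.25, and FLRT2 an H3K18ac peak in C4-2B only. Among 47 intracellular effectors 1 was increased in H3K27ac and 2 decreased, with 0 of either in H3K18ac. The increased one was DPYSL5, a member of the collapsin response mediator family, with 7.88 in C4-2BER and 3.78 in C4-2B.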

How the data were processed

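ChIP-Seq libraries of the acetyl marks came from both cell lines. Per the study's methods, the authors used Bowtie2 for alignment to GRCh38, dropped reads in blacklisted regions, of low mapping quality or duplicated (Picard), pooled the biological replicates and called broad peaks with macs2. The submitters' processing notes name bcl2fastq 2.17, Trimmomatic 0.33 and Bowtie2 2.2.3. In each of the 4 deposited lists the authors give every peak a fold enrichment (a ratio), a −log10 q-value, and a p-value and display score that were not used. Depth is unknown, as the lists hold no read counts. A fold is relative to the list it stands in, and comparing folds between lists carries any difference in background. Read-level, ATAC-seq and RNA-seq data were not analysed here. Some marker genes and 1 sequence are not reported here.

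Peaks were placed on the Ensembl canonical TSSs and gene bodies of GENCODE 44, with an overlap of at least 1 bp counting. Bodies were taken without a minimum fold. The genes named are the members called in either mark, the 5 strongest promoters of each list, the 5 largest differences of body coverage in each direction, members with no peak, and values for most others. Members, lists and pairs were chosen with earlier results of these data known. Promoter sequences came from RefSeq (GRCh38.p14, 80 of 80 entries identical to the genome used), and words of 31 bases were counted over the main chromosomes. The promoter and coverage steps were tested on simulated peaks. Python 3.11.15, pandas 2.3.3 and statsmodels 0.14.6 were used. No paired analysis was possible because replicates had been pooled when peaks were called.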

Additional observations from a re-analysis of the deposited data

How the results depend on the processing

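No paired analysis was possible because replicates had been pooled when peaks were called, and for the same reason no replicate could be left out. The number of members with increased H3K27ac was 4, and 1 when all annotated starts were counted, when the peak had to cover the start, or when only peaks of at least 4-fold were kept. That 1 is 1.67% of the members, against 3.48%, 3.13% and 1.93% of all genes in the same order. Decreased H3K27ac was called at 5 members, at 14 with a ratio of 1.5 and at 3 by presence alone. The counts of 14 and 3 are 23.3% and 5% of the members, against 30.3% and 2.28% of all genes. For H3K18ac the 0 increased members became 1 when the peak had to cover the start, 1 with a 4-fold minimum and 3 with a minimum −log10 q-value of 5. These are 1.67%, 1.67% and 5% of the members, against 2.29%, 1.62% and 2.40% of all genes. The 2 decreased members became 1 with the window of 2000 bp upstream and 500 bp downstream, 1 with all starts, 1 by presence alone, 8 with a ratio of 1.5 and 9 with the 4-fold minimum. A count of 1 is 1.67% of the members, against 6.01%, 5.47% and 4.69% of all genes in that order. The 8 are 13.3% against 21.5%, and the 9 are 15% against 6.12%. Rescaling over shared regions moved the median log2 ratios from −0.34 to −0.0343 for H3K27ac and from −0.25 to −0.0722 for H3K18ac, and centring by GC content turned them to 0.148 and 0.0354. The median difference of H3K18ac coverage turned from −0.79 to 0.0029 percentage points with the q-value minimum. The cause of these shifts was not tested, apart from the construction of each setting. In the other 58 values counts stayed within 1.5 times the reported ones, the farthest being 6 increased H3K27ac members with centring by GC content, and medians within the interval of the reported median over members. That interval is wide for coverage, and the H3K18ac median was −0.158 with the 4-fold minimum. Of 998 ratios of single members, 960 moved by less than 0.5 on the log2 scale. A missing peak is limited by depth, which is unknown, and weak peaks in 1 list decide most calls.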
